A study of Oryza sativa Japonica Group with 8 samples.

Results

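The loci described here are transcribed loci of rice that lie close to a centromere. They were chosen by position alone, as the loci whose midpoint is within 1 Mb of the centre of the centromere of their chromosome, for every chromosome except chromosome 4. The rule took in 975 loci of the 31187 in the table, and the other 27400 loci of the same 11 chromosomes are the background against which they are set. RNA came from japonica rice (Oryza sativa), an inbred cereal, grown in a greenhouse with no treatment or mutation named. The 8 groups were flower buds collected before flowering, flowers of the flowering day, flag leaves before and after flowering, roots before and after flowering, grains at the milk stage and mature seeds. The leaf and root libraries labelled before or after flowering each mix several stages. Each group held 1 library of polyadenylated RNA, sequenced from both ends without strand information, so no value here has a replicate error and no test was possible. Every comparison is between single libraries, or between sets of loci within them, and loci are not replicates.

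A rice centromere is built on arrays of the CentO satellite repeat and on centromere-specific retrotransposons, and part of it carries the histone variant CENH3, on which the kinetochore assembles. It is flanked by pericentromeric heterochromatin, rich in transposable elements and in DNA methylation and poor in genes and in meiotic crossing-over. Transcribed genes are known inside some rice centromeres, with those of chromosomes 8 and 3 the best studied.

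Values are the authors' FPKM (fragments per kilobase of transcript, relative to library size), so levels of different loci are compared per length. A locus is called expressed in a library at 1 FPKM or more. Every locus of the table passes 1 FPKM in at least 1 library, so silent genes near the centromeres are not analysed here. Positions are on MSU Release 7. Loci carry assembly identifiers that the table pairs with no gene name, exon or UTR, so no function is given for any of them and no sequence could be read for them. The summed FPKM of the 8 libraries lay between 569819 and 611306, and the depth in reads is unknown. The library that the labels give as roots after flowering had a leaf-like profile: of 400 loci near the centromeres with at least 5 FPKM in it or in leaves after flowering, 2 differed by at least 4-fold between these libraries, 1 in each direction. In the background 0.295% did so (0.115% higher and 0.18% lower). It is called the late root-labelled library below, and organ-enriched loci were called without it.

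Loci were sparse near the centromeres. The windows held 44.3 loci per Mb, against 86.8 in the rest of these chromosomes, so that 6.52% of the sequence carried 3.44% of the loci. The density was lower near the centre on 11 of 11 chromosomes. It ranged from 30.5 loci per Mb on chromosome 11 to 68.0 on chromosome 2, which was 68.1% of the density in the rest of chromosome 2. The lowest share was on chromosome 3, where the 35.5 loci per Mb near the centre were 33.8% of the 105 in the rest. Density rose with distance. It was 31.5 loci per Mb in the innermost 0.25 Mb, 43.1 from 0.25 to 0.5 Mb and 51.4 from 0.5 to 1 Mb. Beyond the window it was 54.5 from 1 to 2 Mb, 55.7 from 2 to 4 Mb and 107 beyond 8 Mb. The window's edge was therefore not a step in density.

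The loci themselves spanned more sequence. The median span was 5874 bases near the centromeres and 4421 in the background. Only 567 of the 975 (58.2%) had a position of their own, against 67.4% in the background; the others share a span with up to 14 loci, so that the midpoint used to choose them is that of the span. Among loci with their own position the medians were 3844 and 3314 bases. In all, 49 loci near the centromeres lay in 4 spans that each hold at least 10 loci. The span of chromosome 1 from 16565532 to 16910193 holds 14 of them, with highest values between 1.16 and 236 FPKM. The span of chromosome 3 from 19740432 to 20115834 holds 14, with highest values between 1.32 and 75.4 FPKM. The other spans are on chromosomes 1 (10 loci, 15759923 to 15962268) and 9 (11 loci, 3384015 to 3552749). How the authors' counting treated reads that match several places is not given in the sources used here, and this bears on any repeat-rich region.

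**Figure D1:**
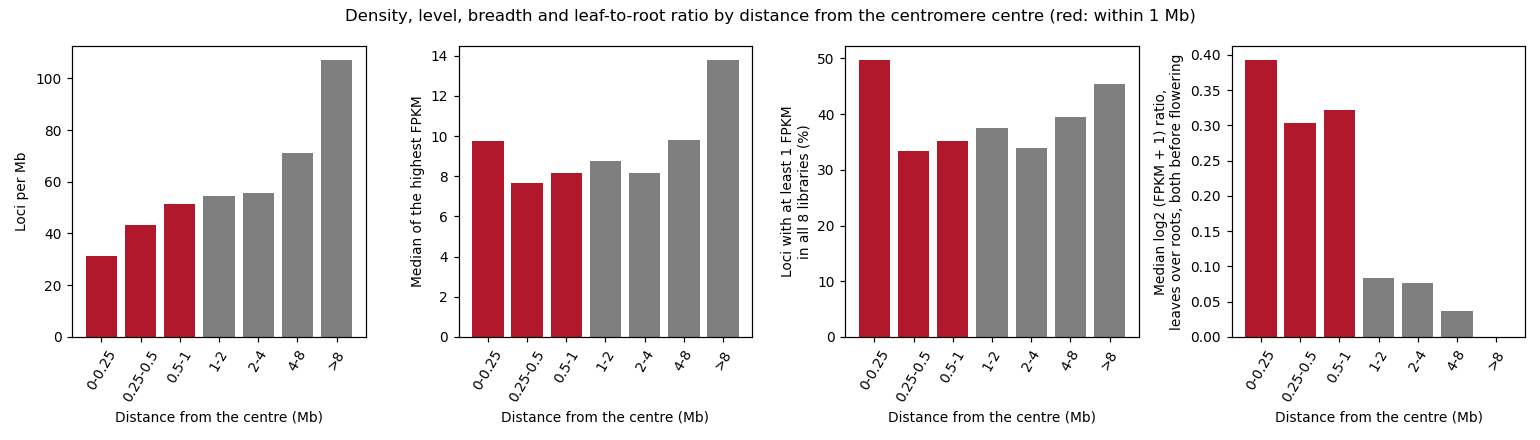
Loci grouped by the distance of their midpoint from the centromere centre (x axis, Mb; red bars, within 1 Mb; grey bars, background). The panels give loci per Mb, the median of each locus's highest FPKM, the percent of loci with at least 1 FPKM in all 8 libraries, and the median log2 (FPKM + 1) ratio of leaves over roots, both before flowering. Density climbs from 31.5 to 107 loci per Mb, and the innermost bin stands at 49.7% in the third panel. The ratio falls from 0.32 inside the window's edge to 0.08 outside it, with loci that share a span pooled with the others.

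Levels were lower than in the background as a whole and nearer to those of the adjoining sequence. The highest FPKM of a locus over the 8 libraries had a median of 8.26 near the centromeres (quartiles 2.71 and 21.7) and 12.1 in the background (quartiles 3.86 and 35.1). Near the centromeres 51 loci (5.23%) reached 100 FPKM and 385 (39.5%) stayed under 5 FPKM, against 9.43% and 30.1% in the background. The median was lower near the centre on 9 of 11 chromosomes, and higher on chromosome 9 (12.3 against 10.8 FPKM) and chromosome 11 (10.5 against 7.75 FPKM). It was lowest on chromosome 6, with 5.67 against 10.6 FPKM. Loci 1 to 2 Mb and 2 to 4 Mb from the centre had medians of 8.74 and 8.18 FPKM, on either side of the 8.26 inside, and loci beyond 8 Mb had 13.8. The 55 loci just inside the edge, at 0.95 to 1 Mb, had a median of 8.42 FPKM, and the 69 just outside, at 1 to 1.05 Mb, had 9.51.

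Expression was also somewhat narrower than in the background as a whole. Of the 975 loci, 364 (37.3%) had at least 1 FPKM in all 8 libraries, against 42.7% in the background, and 149 (15.3%) in 1 library alone, against 13.0%. The first share was lower near the centre on 7 of 11 chromosomes and higher on 4, so this difference was not shared by all of them. The neighbouring sequence was as narrow: at 1 to 2 Mb and 2 to 4 Mb, 37.5% and 33.9% of loci were expressed in all 8 libraries, and 19.2% and 18.5% in 1 alone. The innermost loci went the other way: 86 of the 173 loci within 0.25 Mb of the centre (49.7%) were expressed in every library, against 278 of the other 802 (34.7%). This held on 9 of 11 chromosomes. With each chromosome left out in turn the inner share stayed between 46.8% and 54.2% and the outer between 33.6% and 35.6%. Each chromosome has only 6 to 22 loci in that innermost stretch. The split at 0.25 Mb was chosen after the table was opened.

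The loci closest to the centre, 1 for each chromosome among those with a position of their own, show both patterns. On chromosome 8, XLOC_061420 (12905883 to 12913729) lies 9.81 kb from the centre and had 28.5 FPKM in flower buds, 25.7 in flowers, and 29.3 and 31.5 in the earlier and later leaf libraries. Its level was 24.4 FPKM in roots before flowering, 24.5 in the late root-labelled library, 17.6 in milk grains and 35.5 in mature seeds. No library was far from the others for this locus. On chromosome 10, XLOC_008672 (8193772 to 8201072), 2.58 kb from the centre, was likewise at 10.8 to 22.1 FPKM in all 8 libraries. On chromosome 12, XLOC_020274 (11904645 to 11907308), 5.98 kb from the centre, ranged from 24.7 FPKM in mature seeds to 98.5 in the late root-labelled library. These were loci used throughout the plant at moderate levels. XLOC_042712 on chromosome 5 (5.72 to 57.0 FPKM), XLOC_013097 on chromosome 11 (4.43 to 13.1 FPKM), XLOC_025846 on chromosome 2 (2.02 to 5.29 FPKM) and XLOC_065277 on chromosome 9 (1.11 to 29.6 FPKM) also passed 1 FPKM in every library.

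The other 4 chromosomes had a narrow locus closest to the centre. On chromosome 1, XLOC_001296 (16928617 to 16929720) had 38.0 FPKM in flower buds and 37.2 in flowers, and at most 0.0940 in the other 6 libraries. On chromosome 7, XLOC_056224 (11991456 to 11998599) had 3.56 FPKM in mature seeds and at most 0.0628 elsewhere. On chromosome 6, XLOC_048387 (15311051 to 15313140) reached 1.21 FPKM in grains at the milk stage and 0.397 in mature seeds, and was listed at 0 in the other 6. The locus of chromosome 3, XLOC_030235 (19389820 to 19403053), lies 3.56 kb from the centre. Its level was 1.12 FPKM in the earlier and 1.23 in the later leaf library, 1.57 in the late root-labelled library and 0.0510 in roots before flowering. In the other 4 libraries it had at most 0.435 FPKM.

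**Figure D2:**
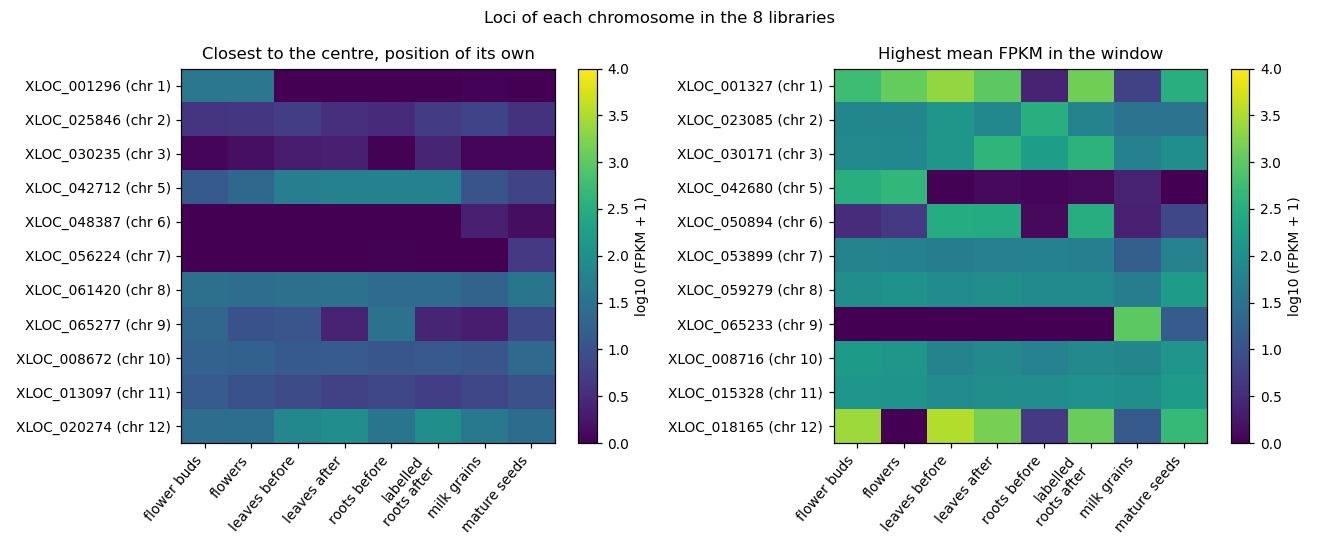
FPKM of 2 loci for each of the 11 chromosomes in the 8 libraries (columns; colour, log10 of FPKM + 1): on the left the locus closest to the centromere centre among those with a position of their own, on the right the locus with the highest mean in the window. On the left 7 of the rows pass 1 FPKM in all 8 libraries; on the right XLOC_018165 and XLOC_001327 reach 3499 and 2272 FPKM in leaves before flowering and drop to 3.60 and 1.45 in roots before flowering.

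The share of transcripts that came from these loci was small and rested in part on a pair of loci. They took 2.53% of the summed FPKM of the 11 chromosomes in buds, 2.25% in flowers, 3.45% in leaves before, 2.56% in leaves after and 1.90% in roots before flowering. The share was 2.57% in the late root-labelled library, 1.26% in milk grains and 1.62% in mature seeds. In 7 of the 8 libraries this was below the 3.44% of loci that they are. Without the pair of loci with the highest values, the share in leaves before flowering was 2.39%, still the highest of the 8, and in milk grains 1.26%, still the lowest.

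That pair is XLOC_018165 and XLOC_001327. XLOC_001327 on chromosome 1 (17349310 to 17350816) had 574 FPKM in flower buds and 1147 in flowers. In leaves it had 2272 FPKM before and 987 after flowering. Roots before flowering had 1.45 FPKM, the late root-labelled library 1356, milk grains 4.85 and mature seeds 316. Leaves and flowers were high, and roots before flowering and milk grains were low. XLOC_018165 on chromosome 12 shares its span (11262020 to 11278448) with XLOC_020225. It had 2629 FPKM in flower buds, 3499 in leaves before, 1489 in leaves after, 3.60 in roots before flowering and 1237 in the late root-labelled library. Milk grains held 12.4 FPKM and mature seeds 482, and the locus was listed at 0 in flowers. XLOC_020225 was listed at 0 in flowers too and had 141 FPKM in buds and 181 in leaves before flowering. Both zeros stand beside large values in buds, so no fold is given for them. Whether these loci overlap within their span, and how reads were divided between them, is not known, and the libraries carry no strand information.

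The highest locus of the windows in roots before flowering was XLOC_001244 on chromosome 1 (16130371 to 16131447), with 1062 FPKM there and between 6.61 and 94.5 in the other 7 libraries. The highest in milk grains was XLOC_065233 on chromosome 9 (2123333 to 2124075), with 976 FPKM there, 13.7 in mature seeds and a listed 0 in the other 6. On 5 chromosomes the locus with the highest mean was broad. They are XLOC_053899 on chromosome 7 (15.0 to 60.6 FPKM), XLOC_059279 on chromosome 8 (47.7 to 157 FPKM), XLOC_008716 on chromosome 10 (58.8 to 151 FPKM), XLOC_015328 on chromosome 11 (83.6 to 164 FPKM) and XLOC_030171 on chromosome 3 (56.9 to 410 FPKM). On chromosome 2 it was XLOC_023085, at 32.2 to 128 FPKM in 7 libraries and 327 in roots before flowering.

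The organs did not share the lower expression near the centromeres equally. In roots before flowering 558 of the 975 loci (57.2%) were expressed, against 67.7% in the background, and the median was 1.46 against 3.03 FPKM. In flower buds the shares were 71.3% and 77.0%, in flowers 70.8% and 76.4%, and in milk grains 53.3% and 58.4%. In leaves before flowering they were 67.5% and 66.9%, in leaves after flowering 64.0% and 65.5%, and in the late root-labelled library 65.4% and 65.8%. Mature seeds had 67.9% and 70.5%. Leaf libraries thus had about the background's share, and roots before flowering were furthest below it. The root share was as low outside the window, at 56.8% from 1 to 2 Mb and 56.3% from 2 to 4 Mb, so it was not particular to the loci near the centromeres. The share in roots before flowering was lower near the centre on 8 of 11 chromosomes. Of the 975 loci, 206 (21.1%) had their highest value in leaves before flowering, against 13.1% in the background, and 88 (9.03%) in roots before flowering, against 15.9%.

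The ratio of leaves to roots, both before flowering, was therefore examined, a comparison chosen after these values were seen. The median log2 ratio, here and below with 1 FPKM added to each value, was 0.33 over the 975 loci and 0.01 over the background. Of the 975 loci, 637 (65.3%) were higher in leaves, against 50.8% in the background, and 301 were higher in roots. The median was higher near the centre than in the rest of the chromosome on 11 of 11 chromosomes, with values near the centre from 0.03 on chromosome 10 and 0.05 on chromosome 1 to 0.64 on chromosome 12. On chromosomes 1 and 10 the gap was small, and on the other 9 it was at least 0.16. With loci that share a span pooled with the others, the ratio had a step at the window's edge. It was 0.39, 0.30 and 0.32 in the 3 bins within 1 Mb and 0.08, 0.08, 0.04 and 0 in the 4 bins outside. Loci with a position of their own were 59.3% at 0.5 to 1 Mb and 65.2% at 1 to 2 Mb. The ratio was not binned for them alone, so whether they have the step was not tested.

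Set against each locus's own mean over the 8 libraries on the log2 scale, leaves before flowering had a median deviation of 0.12 near the centromeres and -0.12 in the background. Leaves after flowering had 0.04 and -0.09, and the late root-labelled library 0.02 and -0.12. Roots before flowering had -0.33 and -0.26. Over all loci pooled, leaves before flowering changed across the window's edge, from 0.09 at 0.5 to 1 Mb to -0.11 at 1 to 2 Mb. Roots before flowering had -0.31 and -0.32 in these bins and -0.32 at 2 to 4 Mb. The 3 leaf-like libraries were thus raised near the centromeres relative to each locus's own mean, leaves before flowering on 10 of 11 chromosomes. Flowers (0.13 and 0.12), milk grains (-0.46 and -0.42), mature seeds (-0.19 and -0.14) and flower buds (0.05 and 0.11) were level with the background or below it. In FPKM itself the medians of the 3 leaf-like libraries were below the background. They were 2.71 against 3.34 in leaves before flowering, 2.61 against 3.16 in leaves after flowering and 2.46 against 3.16 in the late root-labelled library. Leaves before flowering were also above milk grains by a median log2 ratio of 0.54 near the centromeres and 0.18 in the background, again with the higher value near the centre on 11 of 11 chromosomes. These comparisons share the leaf library.

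By the rule of a 4-fold difference and a floor of 5 FPKM on the higher value, 448 of the 975 loci could be compared between leaves and roots before flowering. Of these, 118 differed, which is 26.3%, against 31.1% in the background. In leaves 76 were higher (17.0%, against 14.7% in the background) and in roots 42 were higher (9.38%, against 16.4%). Among loci with their own position the totals were 30.5% and 31.0%, so that the lower total was hardly seen there. The loci furthest towards leaves were XLOC_001327 and XLOC_018165, given above. Those furthest towards roots were XLOC_032915 on chromosome 3 (18435988 to 18437090), where roots before flowering held 431 FPKM and leaves 1.15, and XLOC_015287 on chromosome 11 (11650113 to 11651887), with 86.9 and 0.0261 FPKM.

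The leaf-to-root ratio depended on whether a locus had a position of its own. Near the centromeres the median log2 ratio was 0.13 over the 567 loci that did and 0.57 over the 408 that share a span; in the background it was 0 and 0.24. The difference from the background was thus larger among shared spans, where only 4 of 166 loci compared were at least 4-fold higher in roots, against 12.5% of such background loci. Among loci with their own position the median was higher near the centre on 9 of 11 chromosomes. Scaling the libraries by the median of ratios lowered the ratios to 0.11 near the centromeres and -0.05 in the background, with the higher value near the centre again on 11 of 11 chromosomes. Under that scaling loci with their own position had a median of 0 near the centromeres and -0.11 in the background. With leaves after flowering in place of before, the medians were 0.26 and 0.04. The part that span sharing has in the ratio was not tested.

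**Figure D3:**
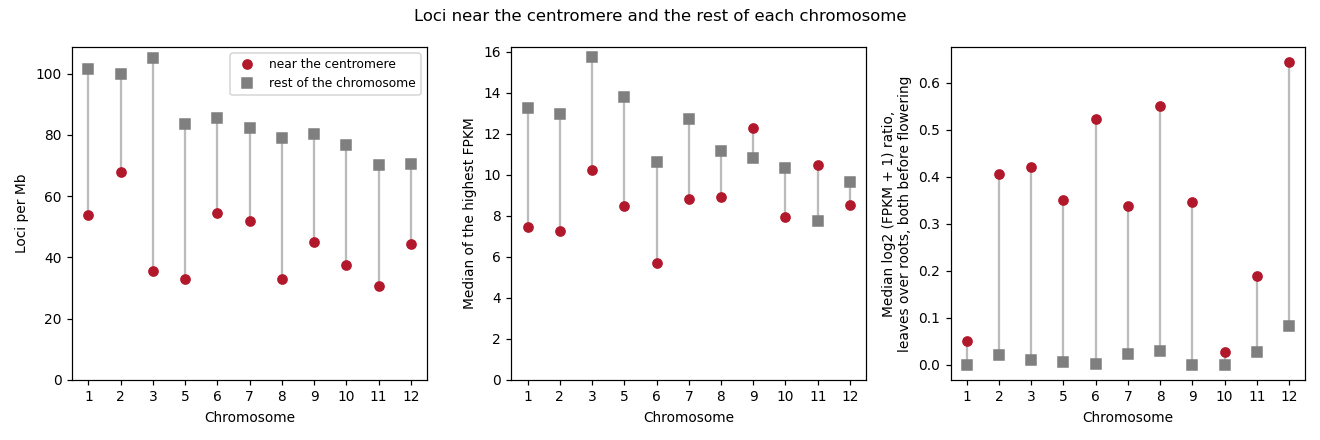
The 11 chromosomes (x axis) with the loci near the centromere as red circles and the rest of the chromosome as grey squares: loci per Mb, the median of each locus's highest FPKM, and the median log2 (FPKM + 1) ratio of leaves over roots before flowering. Density is lower near the centre on 11 of 11 chromosomes, the level on 9, and the ratio is higher on 11, by little on chromosomes 1 and 10.

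**Figure D4:**
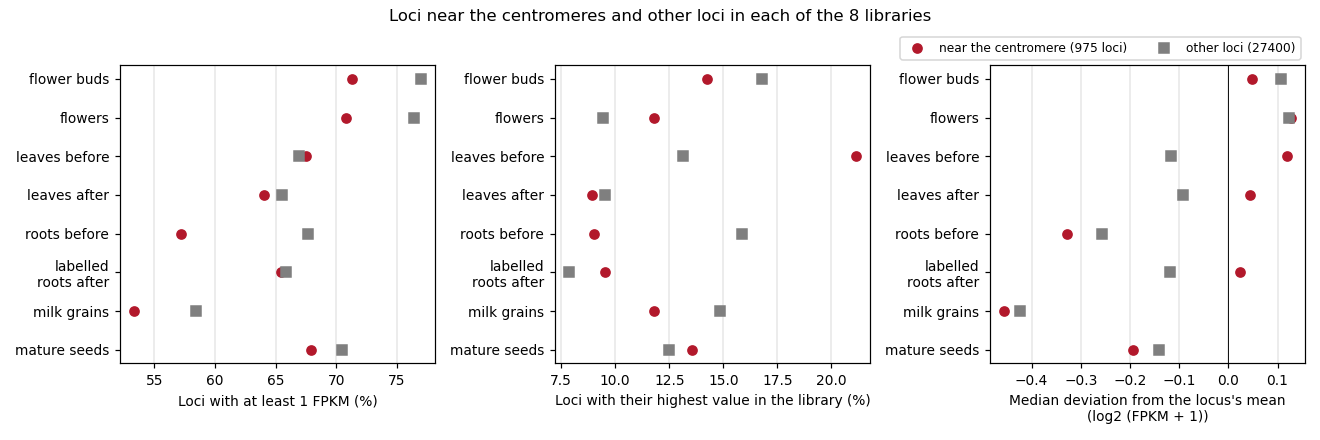
Each of the 8 libraries (rows) with the 975 loci near the centromeres as red circles and the 27400 other loci as grey squares: the percent of loci with at least 1 FPKM (axis not starting at 0), the percent with their highest value in that library (axis not starting at 0), and the median deviation of the library from the locus's mean. Roots before flowering are 57.2% against 67.7% in the first panel, and leaves before flowering are 21.1% against 13.1% in the second.

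Loci used mainly in 1 organ were found near the centromeres at about the background's rate. A locus was called enriched in an organ whose higher library held 10 FPKM or more and exceeded all other organs by a factor of 5 or more, after adding 1 FPKM throughout. This held for 89 of the 975 loci (9.13%), against 10.1% in the background. The root had 18 (1.85%, against 3% in the background), the flower 17 (1.74%, against 2.45%), the leaf 17 (1.74%, against 1.69%) and the seed 37 (3.79%, against 2.98%). The root share was the furthest below the background and the seed share above it. The adjoining sequence leaned the same way. At 1 to 2 Mb and 2 to 4 Mb, 2.25% and 2.06% of loci were enriched in the root, and 4.67% and 3.78% in the seed. The median of the highest FPKM was 28.7 over the 37 seed loci, against 73.1 over the seed loci of the background, and 26.1 over the 18 root loci, against 47.6. Over the 17 leaf loci it was 97.3 FPKM, against 65.4, and over the 17 flower loci 35.6, against 39.4.

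The leaf loci lay in few places. They were on 6 chromosomes, and 11 of the 17 share a span with other loci. The span of chromosome 6 from 16011322 to 16032869 holds 3 of them, and XLOC_048436 among them reached 385 FPKM in the earlier leaf library and 131 in the later one. The span of chromosome 9 from 2310790 to 2322832 holds another 3. In leaves before flowering 13 of the 17 were higher than in leaves after flowering, whereas in the background 128 of 463 leaf loci were. With the 4-fold rule 8 were lower after flowering and 3 were higher, against 41 and 160 of the 463. Of the lower ones only XLOC_032924 had a position of its own (277 FPKM before and 41.5 after flowering). All 3 of the chromosome 9 span were among the rest. Of the higher ones XLOC_063511 (48.3 and 252 FPKM) and XLOC_063519 (4.92 and 38.5 FPKM) had a position of their own. The lean by the 4-fold rule thus rested on loci that share spans. Entry to these groups rests on the higher leaf library, so a locus that differs between stages enters more easily.

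For each organ the locus with a position of its own that stood furthest above the other organs is named. The leaf locus was XLOC_050894 on chromosome 6 (15915517 to 15918850), with 302 FPKM in the earlier and 291 in the later leaf library and 311 in the late root-labelled library. Its level was 0.266 FPKM in roots before flowering and at most 6.12 in the flower and seed libraries. The flower locus was XLOC_042680 on chromosome 5 (12069504 to 12070565), where buds held 339 FPKM and flowers 448, with at most 1.39 elsewhere. The root locus was XLOC_015287, described above, with at most 0.0899 FPKM outside roots before flowering. The seed locus was XLOC_065233, also above. The leaf locus thus passed 1 FPKM in flower and seed libraries, and the root locus passed it in no library outside its organ.

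Between stages, the loci near the centromeres differed in no larger numbers than the background, except for a handful in the flower. From flower buds to flowers 424 loci could be compared, and 8 differed by at least 4-fold (1.89%, against 1.15% in the background). Of these 5 were higher in flowers (0.731% in the background) and 3 lower (0.415% in the background), and 3 of the 8 were listed at 0 in 1 of the libraries. Counts this small, with 2 of 8 having a position of their own, do not set these loci apart. XLOC_056290 on chromosome 7 (13037519 to 13038640) was at 15.8 FPKM in buds and at 98.5 on the flowering day, a log2 ratio of 2.56. XLOC_004640, in the span of 10 loci on chromosome 1, had 14.2 and 103 FPKM, a log2 ratio of 2.78.

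Leaves after flowering differed from leaves before flowering at 24 of 430 loci (5.58%, against 6.29% in the background). Of these 11 were higher after flowering (2.56%, against 3.8%) and 13 lower (3.02%, against 2.49%). The background leaned to higher values after flowering and the loci near the centromeres did not, but among those with their own position 10 were higher and 5 lower. XLOC_044990 on chromosome 5 (11609439 to 11615022) had 7.98 FPKM before and 222 after flowering, a log2 ratio of 4.63, and 90.8 in roots before flowering. XLOC_001225, in the same span as XLOC_004640, had 12.9 and 179 FPKM, a log2 ratio of 3.70. In the other direction, XLOC_063513 in the span of chromosome 9 named above fell by 5.07 on the log2 scale, from 46.8 to 0.426 FPKM. XLOC_004715, in a span of 5 loci on chromosome 1 (16960943 to 16983008), fell by 3.98, from 249 to 14.8 FPKM.

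Mature seeds differed from milk grains at 78 of 399 loci (19.5%, against 26.3% in the background). Of these 54 were higher in mature seeds (13.5%, against 18.8%) and 24 lower (6.02%, against 7.49%). Both directions were below the background. The split depended on scaling, near the centromeres and in the background alike. With the upper quartile 49 were higher and 37 lower. Of the loci that differed, 57.0% were then higher, against 58.3% in the background. As deposited these shares were 69.2% and 71.5%. XLOC_001327 rose from 4.85 to 316 FPKM, a log2 ratio of 5.76, and XLOC_004640 from 1.48 to 117 FPKM, a log2 ratio of 5.57. XLOC_065233 fell by 6.05 on the log2 scale, from 976 to 13.7 FPKM. XLOC_016827 on chromosome 11 (11900464 to 11900602), a locus of 139 bases and the shortest near the centromeres, fell by 4.21, from 78.7 to 3.29 FPKM.

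The pair labelled roots after and before flowering differed at 106 of 432 loci (24.5%, against 30.1% in the background). In the later library 66 were higher (15.3%, against 14%) and 40 lower (9.26%, against 16.1%). Among loci with their own position the totals were 28.6% and 30.8%, so the lower total was less marked there. By distance, 13.6% differed within 0.25 Mb, 25% at 0.25 to 0.5 Mb, 28.3% at 0.5 to 1 Mb and 27.9% at 1 to 2 Mb. The later library is the leaf-like one, and the earlier one is shared with the comparison of leaves and roots above, where 76 and 42 loci were found. Whether these values describe roots cannot be told from these libraries. The extreme loci were the same in both comparisons: XLOC_001327 and XLOC_018165 had log2 ratios of 9.11 and 8.07, and XLOC_032915 and XLOC_015287 fell by 7.02 and 6.42.

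**Figure D5:**
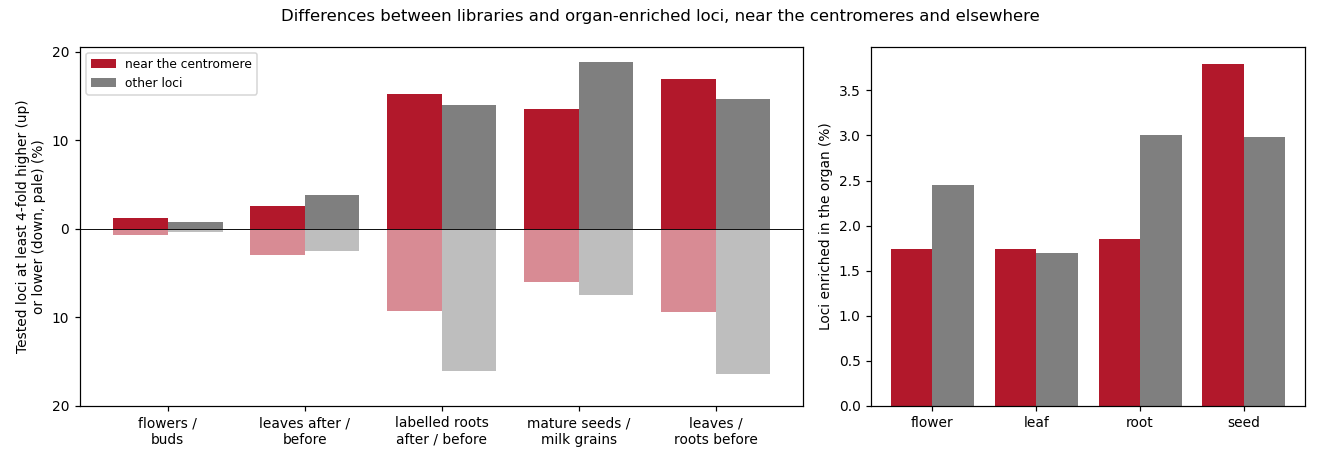
Left, percent of loci tested that were at least 4-fold higher (up) or lower (down, pale) in the first library of each pair, near the centromeres (red) and in the background (grey). Right, percent of loci enriched in each organ. Near the centromeres 9.26% and 9.38% of loci were higher in roots before flowering in the pair labelled roots and in leaves against roots, against 16.1% and 16.4% in the background, and 1.85% were root-enriched, against 3%.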

How the data were processed

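The authors deposited 1 table of FPKM values, with a locus per line and a library per column. Per the submitters' processing notes the tools were Cuffdiff, Cufflinks and TopHat, with no version, setting or order stated. Coordinates are those of MSU Release 7, per the file headers. At low values no step of whole reads was found (of 3092 loci below 0.15 FPKM in a pair of libraries, 2.13% fell in the fullest 0.02-wide log2 bin of ratios), so depth and counting error cannot be given.

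The distance of each locus was taken from its midpoint to the given centre. Chromosome length was taken as the largest locus end. A pair of libraries was called different at a locus for a log2 ratio of 2 or more in either direction, with 1 FPKM added to each value and a floor of 5 FPKM on the higher one; this scale understates changes of low loci. Loci were named by rule: the highest in each library, the highest mean and the closest on each chromosome, up to 2 in each direction with at least 20 FPKM and no value of 0 for each pair of libraries, and 1 for each organ. The members, lists and rules were chosen with earlier results of these data known. The leaf-to-root comparison, the deviations from the locus mean and the innermost bins were added after the values were seen. The rules were run on simulated data with planted positions and planted changes at levels above the floor. That run checks how the rules are computed and does not cover low values, shared spans or differences between replicates. Alternatives covered window width, span, position sharing, pseudocount, filter, fold, scaling and each chromosome left out. Python 3.11.15, pandas 2.3.3 and NumPy 2.4.6 were used.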

Additional observations from a re-analysis of the deposited data

Results flagged for a closer look

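At 3 loci near the centromeres the leaf libraries and the pair labelled roots differed by at least 4-fold in opposite directions. No background share is given for this count, so whether it is particular to loci near the centromeres cannot be told. With 1 library in each group, the difference of these ratios was not tested. The late root-labelled library, given second in its pair below, had a leaf-like profile, so whether roots themselves changed was not tested. XLOC_032924 on chromosome 3 (18575448 to 18577587) had 277 FPKM in the earlier and 41.5 in the later leaf library, and 2.52 and 46.9 in the pair labelled roots. XLOC_048408 on chromosome 6 (15601590 to 15603932) had 20.8 and 101 FPKM in leaves, and 202 and 48.5 in the pair labelled roots. XLOC_052517, in the span of chromosome 6 that holds 3 leaf loci, had 67.7 and 13.9 FPKM in leaves, and was listed at 0 and had 21.3 FPKM in the pair labelled roots.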

How the results depend on the processing

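No paired analysis was possible because each group held 1 library. With windows reaching 0.5 Mb or 2 Mb to either side, the loci numbered 410 or 2175, their density was 43.5% or 55.4% of the background's and their median share of summed FPKM 0.790% or 5.53%, against 975, 51.0% and 2.39% at 1 Mb. Organ-enriched loci then numbered 35 (8.54%, against 10.1% in the background) or 226 (10.4%, against 10.1%). Loci at least 4-fold different numbered 1 or 17 in the flower (0.535% against 1.18% in the background, or 1.80% against 1.12%). In leaves they numbered 10 or 51 (5.43% against 6.27%, or 5.56% against 6.32%). In the pair labelled roots they numbered 37 or 251 (19.7% against 30.0%, or 26.4% against 30.15%). In seeds they numbered 28 or 209 (16.3% against 26.2%, or 23.2% against 26.3%). Between leaves and roots they numbered 41 or 281 (21.8% against 31.0%, or 28.6% against 31.1%). The median leaf-to-root log2 ratio at 2 Mb was 0.20, against 0.01 in the background. Among the 567 loci with their own position, density was 44.0% of the background's. Their median highest level was 10.4 FPKM (13.8 in the background) and their ratio 0.13 (0 in the background). There, 57 loci were organ-enriched (10.1%, against 11.1% in the background). In the flower 2 differed (0.738%, against 1.13%), in leaves 15 (5.81%, against 6.14%) and in seeds 48 (18.6%, against 27.3%). The shares of the 975 loci expressed in every library were 46.1% (50.9% in the background) at 0.5 FPKM and 30.2% (34.1%) at 2 FPKM. In 1 library alone 6.87% passed 0.5 FPKM, against 6.33%. The leaf-to-root ratio was 0.49 (0.03 in the background) with a pseudocount of 0.1 FPKM and 0.55 (0.16) among loci with at least 5 FPKM. Scaling gave 0.11 (-0.05 in the background) by the median of ratios and 0.20 (-0.001) by the upper quartile. With an 8-fold rule, 2 loci differed in the flower (0.472%, against 0.218% in the background) and 9 in leaves (2.09%, against 1.77%). In the pair labelled roots 64 then differed (14.8%, against 16.6%), and in seeds 28 (7.02%, against 10.97%). Between leaves and roots 76 differed (16.96%, against 17.35%). The share of summed FPKM was 2.003% without the 2 highest loci. With each chromosome left out it was 2.01% (without chromosome 12) to 2.54%, and 5 (without chromosome 6) to 8 loci differed in the flower. The 5 loci were 1.29% of those compared, against 1.17% in the background.

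Some shares changed side of the background, and the cause was not tested. The flower share went below it within 0.5 Mb (0.535% against 1.18%) and among loci with their own position (0.738% against 1.13%). Organ-enriched loci went above it within 2 Mb (10.4% against 10.1%), and loci differing between leaf libraries with the 8-fold rule (2.09% against 1.77%). These last measures also went above it, by 0.113 and 0.0521 percentage points, without chromosome 2 and without chromosome 12, and organ-enriched loci were level with it when low values were not filtered. The leaf-to-root ratio stayed above the background under every alternative run. Its alternatives, and leaving out the highest loci, were chosen after seeing the data. Depth in reads is unknown, so the counting error of low values is too.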

Other observations

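A group of loci near different centromeres had like profiles, seen while reading the table and not chosen by a rule. On chromosome 10, XLOC_008733 (8927906 to 8929017) and XLOC_010539 (8937183 to 8938317) lie next to each other and are both flower-enriched. The first had 275 FPKM in buds and 249 in flowers, and the second 384 and 337; the highest value of either in the other 6 libraries was 1.22. XLOC_042680 on chromosome 5 had 339 and 448 FPKM in these libraries and also at most 1.39 elsewhere, in milk grains. In all 3, milk grains were the highest of the libraries outside the flower. Without gene names or sequences, whether these loci are copies of each other was not tested.

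A second profile was high in leaves and flowers and low in milk grains and in roots before flowering. It too was seen while reading and not chosen by a rule. Loci with it were not counted, near the centromeres or in the background, so it is not shown to be particular to these loci. It was seen at XLOC_001327 and, among others, at the following loci with positions of their own. XLOC_018168 on chromosome 12 (11320266 to 11322547) had 676 FPKM in flowers, 329 in leaves before flowering, 0.387 in the earlier roots and 1.55 in milk grains. XLOC_033000 on chromosome 3 (19412907 to 19417115), 0.0150 Mb from the centre by its midpoint, had 185, 299, 5.28 and 3.80 FPKM in the same libraries.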
